A study of Mus musculus with 8 samples.

Results

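The genes described here encode the pore-forming subunits of the AMPA receptor and a set of its auxiliary proteins. They were picked by name: *Gria1*, *Gria2*, *Gria3* and *Gria4* for the subunits GluA1 to GluA4, *Cacng2*, *Cacng3* and *Cacng8* for the transmembrane AMPA receptor regulatory proteins (TARPs), *Cnih2* and *Cnih3* for the cornichons, and *Shisa9* for the protein also called CKAMP44. All 10 were among the 45706 genes of the gene table and among the 14962 genes that passed the filter on low counts. They were measured by bulk RNA-seq in hippocampal neurons of C57/Bl6 wild-type mice, taken at embryonic day 18 and grown in culture, which received melanin-concentrating hormone (MCH) peptide at 1 µM or water as vehicle for 4 h. There were 4 wells per treatment, numbered as replicates 1 to 4. A model tag in the labels reads Alzheimer's disease, but the genotype entry of every well is wild type. The methods tell of 2 separate cultures, each with 2 wells of either treatment, and do not say which replicate belongs to which, so P values measure the spread between wells, part of which may be technical. Glial overgrowth was limited with 5-fluoro-2′-deoxyuridine. Between 26083936 and 31844861 estimated reads per well fell on genes, and the 10 genes together took 0.227% to 0.235% of them.

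AMPA receptors are glutamate-gated channels that carry most of the fast excitatory current in the hippocampus, and the number and kind of receptors at a synapse set its strength. Each channel is an assembly of GluA subunits, and whether GluA2 is among them decides if calcium can pass. TARPs and cornichons bind the subunits, help them leave the endoplasmic reticulum and slow the closing of the channel, whereas *Shisa9* encodes a protein that changes how the channel desensitizes. MCH is a hypothalamic peptide that acts on the receptor encoded by *Mchr1*. The comparison asks whether the messenger RNAs of this complex differ after exposure to MCH.

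Every *Gria* gene is spliced in a mutually exclusive way at a pair of neighbouring exons, called flip and flop, which encode a stretch of the ligand-binding domain and change the channel's kinetics. Their sequences are shown for *Gria1* and *Gria2* because the main transcripts of each gene in the results that follow differ in these exons, though not only there. Each exon is 115 bases long, and the sequences and positions are those of GENCODE vM21 on GRCm38. Capitals mark the bases at which flip and flop of the same gene differ, which are 36 in *Gria1* and 36 in *Gria2*.
Gria1 flip, chr11:57310608-57310722, plus strand: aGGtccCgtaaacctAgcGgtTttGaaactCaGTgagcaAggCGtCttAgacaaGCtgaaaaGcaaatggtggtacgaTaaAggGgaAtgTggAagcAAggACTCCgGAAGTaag
Gria1 flop, chr11:57309769-57309883, plus strand: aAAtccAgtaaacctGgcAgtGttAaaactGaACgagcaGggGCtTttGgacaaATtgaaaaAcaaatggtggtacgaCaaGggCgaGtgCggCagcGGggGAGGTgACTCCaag
Gria2 flip, chr3:80690404-80690518, minus strand: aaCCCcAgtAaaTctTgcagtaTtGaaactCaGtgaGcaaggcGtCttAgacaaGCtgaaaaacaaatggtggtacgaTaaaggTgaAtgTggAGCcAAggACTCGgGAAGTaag
Gria2 flop, chr3:80691320-80691434, minus strand: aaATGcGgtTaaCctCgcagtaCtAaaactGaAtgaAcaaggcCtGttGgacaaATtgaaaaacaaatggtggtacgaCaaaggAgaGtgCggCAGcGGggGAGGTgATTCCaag
Flip and flop are 68.7% identical within *Gria1* and also within *Gria2*, while the flip exons of these 2 genes are 88.7% identical to each other and the flop exons 87.8%. In *Gria3* and *Gria4* the exons of the pair differ at 32 and 31 bases.

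Levels were compared between genes per length, in TPM (reads per length, scaled so that each well has the same total) summed over the transcripts of a gene. *Cnih2* and *Gria1* were highest, at 547 ± 42.1 and 503 ± 42.9 TPM (mean ± SD over 8 wells), and their ranges overlapped. The *Gria1* level rested on how short transcripts were counted. Gria1-203, an annotated transcript of 287 bases, held 0.49% of the gene's reads but 175 TPM on average, and without transcripts under 500 bases *Gria1* was at 328 ± 13.9 TPM, below *Cnih2* in all 8 wells. *Gria2* followed at 218 ± 12.5 TPM, below *Gria1* in all 8 wells on either scale.

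The other members were several-fold lower. *Cacng8*, the TARP known for its abundance in the hippocampus, was at 67.6 ± 5.3 TPM, and *Cnih3* was at 63.4 ± 7.6 TPM. These neighbours were not separated: *Cacng8* was the higher in 5 of 8 wells. *Gria4* came next at 49.3 ± 2.2 TPM, below *Cnih3* without overlap of the ranges. The ranges of *Gria4*, *Shisa9* (42.2 ± 1.8 TPM), *Cacng3* (37.4 ± 3.6 TPM) and *Gria3* (33.7 ± 2.4 TPM) each overlapped with the next in this order, although *Gria4* was above *Shisa9* in all 8 wells. *Cacng2*, which encodes stargazin, was lowest at 28.1 ± 1.0 TPM and lay below *Gria3* in all 8 wells.

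**Figure D1:**
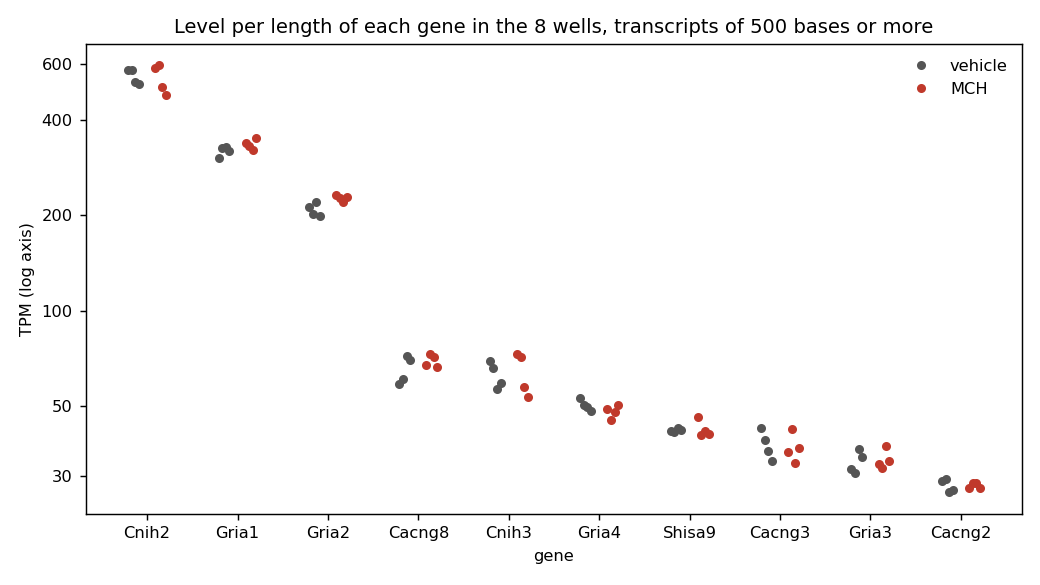
Level of each gene in TPM (log axis) in the 4 vehicle-treated and 4 MCH-treated wells, one point per well, from transcripts of 500 bases or more. *Cnih2*, *Gria1* and *Gria2* are at 199 TPM or more in every well, and the other 7 genes at 73.3 TPM or less.

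After MCH, none of the 10 genes was differentially expressed (DE) by edgeR's quasi-likelihood test with adjustment over all genes tested, where 35 of 14962 genes, or 0.234%, were DE. Only *Gria2* had an unadjusted P under 0.05, beside 1272 of the 14962 genes, and DESeq2 also called none of the 10. No member had treatments that did not overlap in CPM, against 6.03% of all genes tested. In TPM 1 member did not overlap, *Gria2*, at 199 to 220.9 TPM with vehicle and 221.2 to 233 TPM with MCH, against 5% of the 14880 tested genes with a TPM value. By direction, 4 members were higher and 6 lower, with a median log2 fold change of −0.013, beside −0.0027 over all genes tested, and 48.96% of all genes tested were higher.

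*Gria1* (ENSMUSG00000020524, chr11:57011387-57330244, plus strand) encodes the subunit whose phosphorylation and delivery to synapses are central to plasticity. Its reads, in CPM (reads scaled to a common library size with TMM factors), were 859, 829, 867 and 862 in the vehicle-treated wells and 858, 847, 853 and 868 in the MCH-treated wells. The ranges of the treatments overlapped, with the lowest well in vehicle and the highest in MCH. The log2 fold change was 0.0042 with a standard error (SE) of 0.031 and a 95% interval of −0.064 to 0.073, that is, a change of −4.36% to 5.17% (adjusted P = 1.00). Between 22171 and 26856 reads per well stood behind these values, for which counting alone gives a coefficient of variation of 0.646%, and the wells varied by 2.01% with vehicle and 1.02% with MCH.

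*Gria2* (ENSMUSG00000033981, chr3:80681450-80802835, minus strand) encodes the subunit that keeps calcium out of the channel after its messenger RNA is edited. It was at 588, 551, 580 and 533 CPM with vehicle and at 609, 609, 587 and 619.9 CPM with MCH. The MCH-treated wells were the higher in each of the 4 pairs with the same replicate number, but the lowest of them lay just under the highest vehicle-treated well. The means were 563 ± 25.7 and 606 ± 14.0 CPM (SD, n = 4 wells each), with a log2 fold change of 0.11, an SE of 0.040 and an interval of 0.016 to 0.20. In the fit of treatment alone this was not DE (adjusted P = 0.492), ranking 778th by P of the 14962 genes. With the replicate number as a term the adjusted P was 0.067. With the side of the wells as a term it was 0.0455, which made *Gria2* DE in that fit at a log2 fold change of 0.11. That fit called 1 of the 10 members and 668 genes in all, or 4.46%. The sides were read from these same counts, as described further on.

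*Gria3* (ENSMUSG00000001986, chrX:41400854-41678601, plus strand) and *Gria4* (ENSMUSG00000025892, chr9:4417896-4796234, minus strand) encode the less abundant subunits, the second known from early development and from interneurons. *Gria3* was at 88.1, 86.4, 96.7 and 94.6 CPM with vehicle and at 88.6, 86.7, 99.3 and 90.9 CPM with MCH. In both treatments replicates 3 and 4 were the higher wells, and the means differed by −0.0011 on the log2 scale (interval −0.12 to 0.12). *Gria4* was at 118, 112, 106 and 107 CPM with vehicle and at 106, 103, 107 and 109.7 CPM with MCH. The difference of −0.056 on the log2 scale (interval −0.15 to 0.041, adjusted P = 0.818) was not shared by all wells, since in replicates 1 and 2 the log2 difference was −0.13 and in replicates 3 and 4 it was 0.024.

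None of the 3 TARPs was DE. *Cacng2* (ENSMUSG00000019146, chr15:77991748-78120028) ranged from 82.4 to 93.2 CPM with vehicle and from 84.6 to 88.4 CPM with MCH, a log2 fold change of −0.025 (interval −0.13 to 0.078). *Cacng8* (ENSMUSG00000053395, chr7:3390683-3415648) ranged from 53.1 to 63.8 CPM and from 59.0 to 64.8 CPM, with a log2 fold change of 0.065 (interval −0.075 to 0.20). For *Cacng8* the pairs split, with a log2 difference of 0.16 in replicates 1 and 2 but of −0.023 in the other wells. *Cacng3* (ENSMUSG00000066189, chr7:122670492-122769393) was at 48.7, 49.5, 40.2 and 44.3 CPM with vehicle and at 47.8, 45.9, 41.8 and 40.2 CPM with MCH. Here the difference between treatments, −0.056 (interval −0.23 to 0.12), was smaller than that between replicates 1 and 2 and replicates 3 and 4.

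Among the cornichons, *Cnih2* (ENSMUSG00000024873, chr19:5092868-5098521) was at 339, 341, 306 and 304 CPM with vehicle and at 337, 344, 293 and 275 CPM with MCH. *Cnih3* (ENSMUSG00000026514, chr1:181352628-181460641) was at 92.3, 89.8, 76.8 and 77.6 CPM with vehicle and at 92.6, 91.3, 73.2 and 70.04 CPM with MCH. For both genes replicates 1 and 2 were nearly level between treatments, with log2 differences of 0.0038 and 0.014, and in replicates 3 and 4 the differences were −0.10 and −0.11. With treatment alone their intervals were among the widest of the 10, at −0.22 to 0.13 for *Cnih2* and −0.29 to 0.20 for *Cnih3*. Changes inside those bounds were not resolved by that fit. With the replicate number as a term the SE was 0.030 instead of 0.077 for *Cnih2* and 0.037 instead of 0.108 for *Cnih3*, and neither was DE. *Shisa9* (ENSMUSG00000022494, chr16:11984113-12270902) ranged from 80.4 to 86.5 CPM with vehicle and from 81.0 to 90.6 CPM with MCH, with a log2 fold change of 0.014 (interval −0.086 to 0.11).

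**Figure D2:**
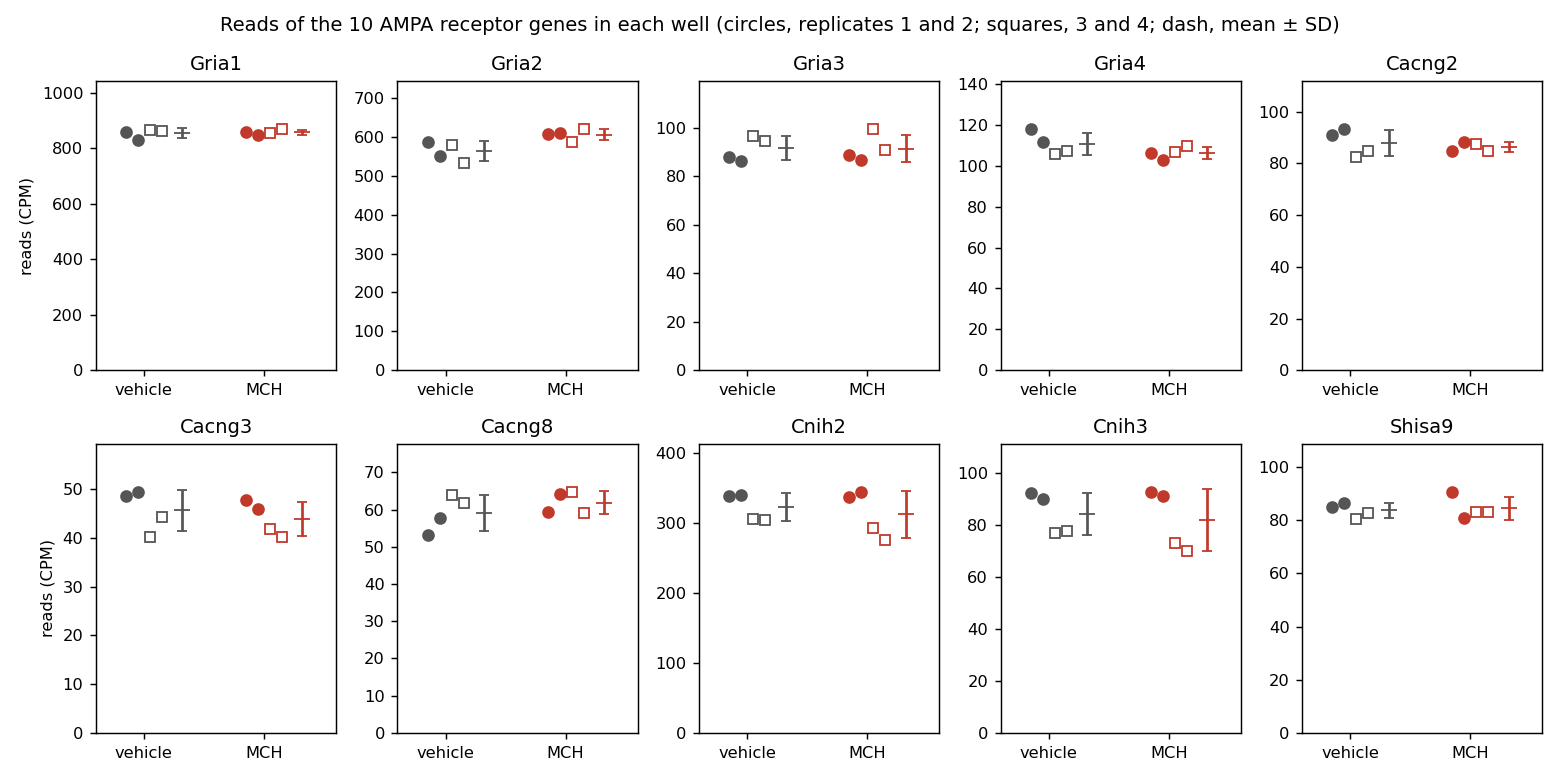
Reads of each gene in CPM (axes start at 0) in each well, with circles for replicates 1 and 2, squares for replicates 3 and 4, and a dash with bars for the mean ± SD of 4 wells. The treatments overlap for all 10 genes, and for *Cnih2*, *Cnih3* and *Cacng3* the squares lie below the circles in both treatments.

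**Figure D3:**
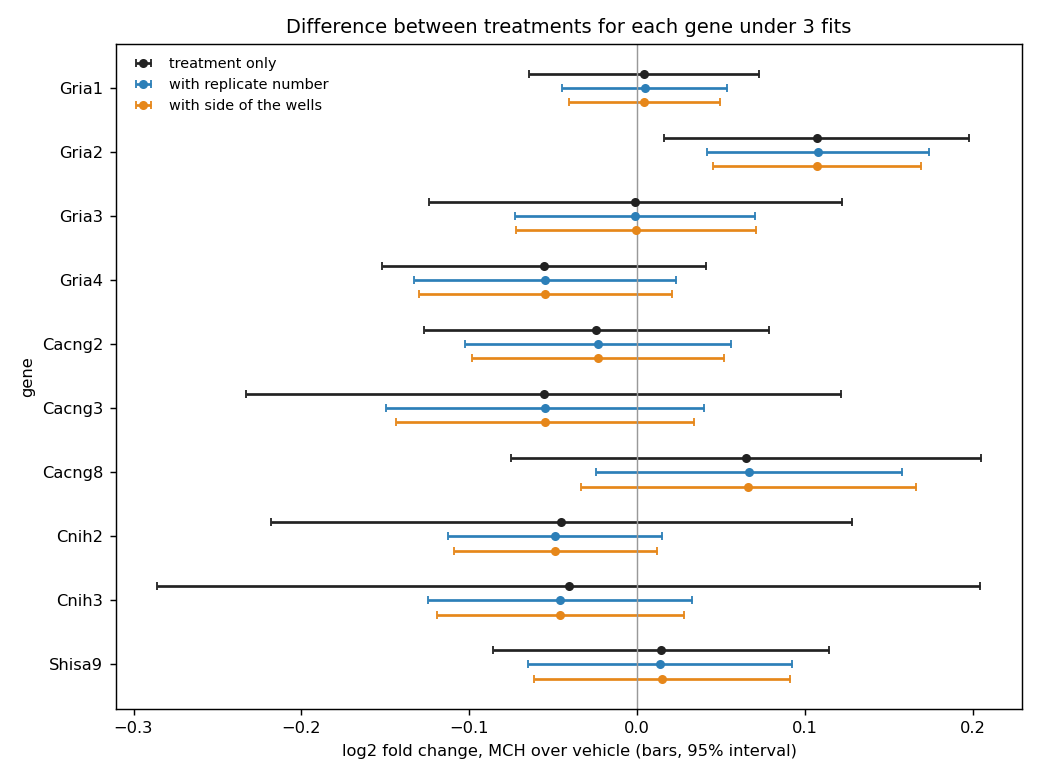
Log2 fold change of MCH over vehicle with its 95% interval for each gene, from edgeR fits with treatment alone, with the replicate number added and with the side of the wells added. The estimates hardly move between fits, the intervals narrow with either term, and those of *Gria2* lie above 0 in all 3 fits.

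A larger difference ran across the replicate numbers. The first principal component of the deviations from the treatment means, with 59.8% of their variance, put replicates 1 and 2 of both treatments on one side and replicates 3 and 4 on the other. Because the sides were read from the counts, what follows is a description with no test. The wells of the sides did not overlap for 4 of the 10 members, beside 29.6% of all genes tested. *Cnih3* was at 89.8 to 92.6 CPM in replicates 1 and 2 and at 70.04 to 77.6 CPM in replicates 3 and 4, a log2 difference of −0.30. *Cnih2* (337 to 344 against 275 to 306 CPM) and *Cacng3* (45.9 to 49.5 against 40.2 to 44.3 CPM) each had a log2 difference of −0.21. *Gria3* was the one of the 4 that was higher, at 86.4 to 88.6 against 90.9 to 99.3 CPM. *Gria1* and *Gria2* overlapped between sides, with log2 differences of 0.025 and −0.024.

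Cell type markers moved with the sides. The summed reads of 5 astrocyte markers were 284 to 384 CPM in replicates 1 and 2 and 1261 to 1420 CPM in replicates 3 and 4, and all 5 of them were higher there. The 4 markers of excitatory neurons summed to 3048 to 3428 and to 2537 to 2700.5 CPM, and the 5 markers of inhibitory neurons to 2440.4 to 2660.3 and to 2027 to 2269.7 CPM. Their part in the differences of *Cnih2*, *Cnih3*, *Cacng3* and *Gria3* was not tested, and fewer cells of a type cannot be told apart from less RNA per cell in bulk samples. Markers of fibroblasts and vessels summed to 15.7 to 21.6 CPM in replicates 1 and 2 and to 47.7 to 52.6 CPM in replicates 3 and 4, with all 5 higher there. Most of this sum was *Dcn*, at 12.9 to 17.9 against 41.2 to 43.5 CPM. The vessel markers were near 0, with *Cldn5* at 0.14 CPM or less and *Pecam1* at 0.74 CPM or less in every well. Oligodendrocyte lineage markers summed to 34.4 to 43.3 and to 45.9 to 48.2 CPM, with *Mog* at 0 in every well. The 5 general neuronal markers summed to 4863.5 to 5089.6 CPM in replicates 1 and 2 and to 4664 to 4773.5 CPM in replicates 3 and 4. That was a log2 difference of −0.070. Of these markers *Syt1* was separated between sides, and the ranges of *Tubb3*, *Rbfox3*, *Map2* and *Snap25* overlapped. Only the microglial sum, at 3.41 to 5.56 and 4.79 to 5.83 CPM, overlapped between sides, whereas all 7 sums overlapped between treatments.

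The make-up of the receptor was compared within wells, as the share of each *Gria* gene in their summed TPM and as ratios of auxiliary genes to that sum, 7 values in all. With 4 wells against 4 the smallest two-sided exact permutation P is 0.0286. With all transcripts counted, *Gria1* made up 62.4 ± 2.47% of the summed *Gria* TPM with vehicle and 62.5 ± 1.19% with MCH. *Gria2* made up 26.8 ± 1.66% and 27.5 ± 1.12% (SD, n = 4 wells each). *Gria4* was at 6.23%, 6.46%, 6.24% and 6.93% with vehicle and at 6.10%, 5.503%, 5.69% and 6.05% with MCH. This share was lower in every MCH-treated well than in any vehicle-treated well, by 0.629 percentage points on average, with the smallest P the permutations can give (exact permutation P = 0.0286, 0.20 after adjustment over the 7 values). With 7 values adjusted together, a share that is alone at this smallest P cannot pass the threshold, so not passing decides nothing here. The *Gria3* share was 4.31 ± 0.59% and 4.10 ± 0.24%.

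The ratio of *Gria1* to *Gria2* was 1.22 ± 0.15 with vehicle and 1.18 ± 0.085 with MCH on the log2 scale (exact permutation P = 0.743, n = 4 wells each). That of the 3 TARPs to the summed *Gria* genes was −2.57 ± 0.12 and −2.62 ± 0.072 (exact permutation P = 0.543, n = 4 wells each). That of the 2 cornichons was −0.35 ± 0.088 and −0.45 ± 0.18 (exact permutation P = 0.286, n = 4 wells each), and it differed by 0.041 in replicates 1 and 2 and by −0.26 in replicates 3 and 4. Without transcripts under 500 bases the cornichon ratio was 0.0010 with vehicle and −0.096 with MCH. Its differences were then −0.048 and −0.145, with the same sign in both sets of wells. The log2 ratio of *Gria1* to *Gria2* was then 0.62 with vehicle and 0.56 with MCH. None of the 7 passed after adjustment, which no value could have done alone at 4 wells per treatment.

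Of the 13 annotated transcripts of *Gria1* and *Gria2*, 10 had a mean of at least 10 estimated reads per well and all 10 were tested. None was DE, and 0 of the 33527 transcripts tested were DE by edgeR (0%). The edgeR test had low power for transcripts in simulated counts, so changes in single transcripts may have been missed. None of the 10 and 1476 of all transcripts had an unadjusted P under 0.05. DESeq2, run without the filter, called 219 of 69767 transcripts, none of them among the 10.

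For *Gria1*, the flip transcript Gria1-201 (5546 bases) held 70.5% of the gene's reads and the flop transcript Gria1-202 (5399 bases) held 27.9%. They share 5284 bases, so their split rests on 262 bases of the first and 115 of the second, the flop exon. Gria1-201 was at 607, 569, 615 and 626 CPM with vehicle and at 621, 599.6, 592 and 617 CPM with MCH. Gria1-202 was at 244, 245, 242 and 234 CPM and at 225, 233, 252 and 242 CPM. Neither was DE, at log2 fold changes of 0.0073 (interval −0.078 to 0.092) and −0.022 (interval −0.12 to 0.072).

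For *Gria2*, the flip transcript Gria2-202 (4026 bases) held 58.4% of the reads and the flop transcript Gria2-201 (10371 bases, with a far longer 3′ end) held 30.3%. The exon choice and the length of the 3′ end are tied together in these annotated transcripts and cannot be told apart in their counts. Gria2-202 was at 328, 324, 353 and 324 CPM with vehicle and at 366, 347, 339 and 359 CPM with MCH. Gria2-201 was at 189, 168, 162 and 159 CPM and at 174, 190.3, 181 and 198 CPM. Both were on average higher with MCH, as was the gene, with log2 fold changes of 0.087 (interval −0.0073 to 0.18) and 0.13 (interval −0.018 to 0.28), and the treatments overlapped in each. The remaining 6 tested transcripts, which are retained introns, a nonsense-mediated decay form and short forms, had log2 fold changes between 0.089 and 0.26, with the widest interval, −0.86 to 1.19, for Gria2-203.

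The share of flip in the TPM of transcripts that hold exactly one of the exons was looked at after these values were seen. It was 70.9 ± 1.19% with vehicle and 71.3 ± 1.34% with MCH for *Gria1*, and 84.0 ± 1.28% and 83.6 ± 0.94% for *Gria2* (SD, n = 4 wells each). For *Gria3* it was 85.5 ± 4.08% and 85.6 ± 1.47%. *Gria4* stood apart as the one gene with mostly flop, at 22.4%, 28.4%, 41.7% and 38.1% flip with vehicle and 34.5%, 26.7%, 31.0% and 40.3% with MCH. None passed the threshold (lowest two-sided exact permutation P = 0.629, n = 4 wells each, 4 genes compared), and the *Gria4* wells spread most. The level for *Gria2*, whose flop transcript is far longer, depended on the unit. Counted in reads, its flip share was 66.2 ± 2.12% with vehicle and 65.5 ± 1.57% with MCH (SD, n = 4 wells each).

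**Figure D4:**
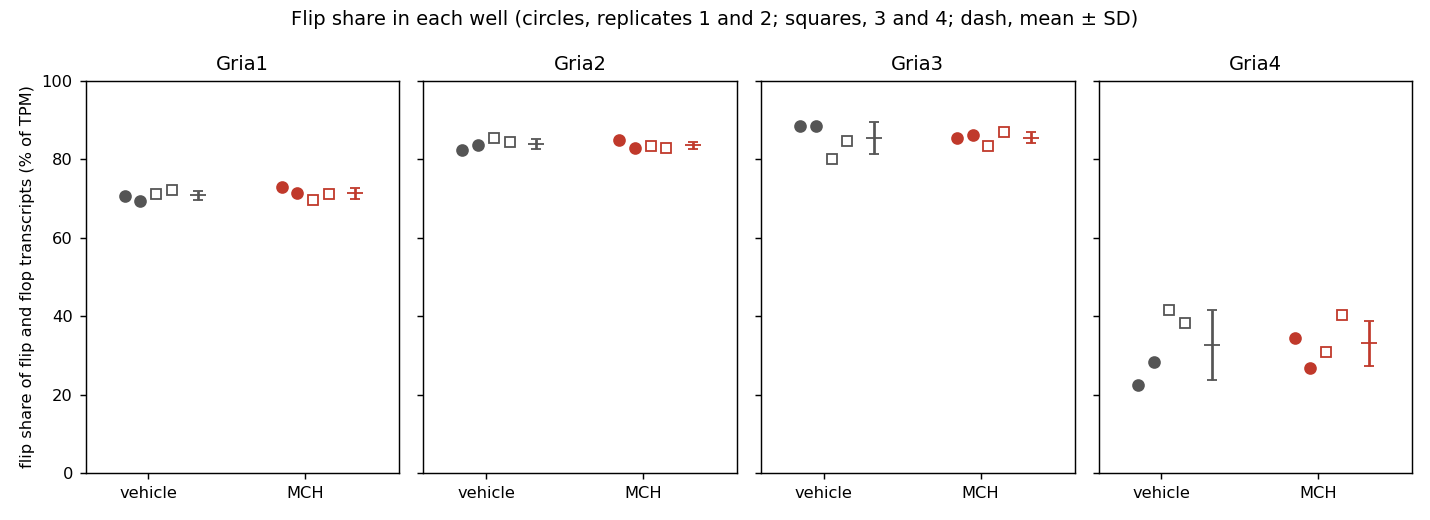
Share of flip in the summed TPM of flip and flop transcripts of each *Gria* gene (percent, axis from 0 to 100) in each well, with circles for replicates 1 and 2, squares for replicates 3 and 4, and a dash with bars for the mean ± SD of 4 wells. In every well flip makes up at least 69.3% of this TPM for *Gria1*, 82.3% for *Gria2* and 80.0% for *Gria3*, and at most 41.7% for *Gria4*.

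The other parts of the receptor complex were covered by a list of 24 genes, all tested. Of these none was DE, 10 were higher and 14 lower, and the median log2 fold change was −0.016. The lowest was *Cacng5*, a type II TARP, at 58.6, 57.1, 65.3 and 71.9 CPM with vehicle and 40.2, 36.9, 63.9 and 59.5 CPM with MCH (log2 fold change −0.33, adjusted P = 0.706). The highest was *Gsg1l*, an auxiliary subunit, at 0.21 (adjusted P = 0.771). With the replicate number as a term, a fit that called 3.98% of all genes tested, 2 of the 24 were DE. They were *Shisa6*, an auxiliary subunit, at a log2 fold change of 0.15 (adjusted P = 0.0304), and *Nrn1*, which encodes neuritin, at −0.16 (adjusted P = 0.0031). The treatments overlapped for *Shisa6*, which was not DE with treatment alone (adjusted P = 0.795) or with the side of the wells (adjusted P = 0.0855). *Nrn1* was at 239 to 252 CPM with vehicle and 217 to 220.3 CPM with MCH, without overlap, and its adjusted P was 0.128 with treatment alone.

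Among 20 genes for the anchoring and trafficking of AMPA receptors, all tested, 1 was DE, beside 0.234% of all genes tested. By direction 9 of the 20 were higher and 11 lower, with a median log2 fold change of −0.010, beside −0.0027 over all genes tested. *Arc*, an immediate early gene whose product draws AMPA receptors into endosomes, was at 58.9, 55.0, 54.9 and 56.2 CPM with vehicle and at 40.5, 34.7, 36.4 and 37.7 CPM with MCH. It fell by 0.59 on the log2 scale (SE 0.053, edgeR adjusted P = 0.0049). *Nptx2*, which encodes a secreted pentraxin that clusters AMPA receptors, did not overlap between treatments either, at 92.2 to 105 CPM with vehicle and 74.0 to 85.7 CPM with MCH. The log2 fold change of *Nptx2* was −0.30, with an adjusted P of 0.118 with treatment alone and of 2.8e-05 with the replicate number. The highest of the list was *Myo5b*, a motor of recycling endosomes, at 0.14 (adjusted P = 0.721 with treatment alone and 0.05004 with the replicate number). With the side of the wells as a term *Myo5b* was DE (adjusted P = 0.0311), which made 3 of the 20 DE in that fit, beside 4.46% of all genes tested.

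Of 15 kinase and phosphatase genes whose products act on GluA1, none was DE with treatment alone, 5 were higher and 10 lower, and the median log2 fold change was −0.036. With the replicate number as a term 2 were DE, both lower, in a fit that called 3.98% of all genes tested. They were *Prkar2a*, a regulatory subunit of protein kinase A, at a log2 fold change of −0.16 (adjusted P = 0.0373, and 0.417 with treatment alone), and *Ppp1cc*, a catalytic subunit of protein phosphatase 1, at −0.15 (adjusted P = 0.0085, and 0.182 with treatment alone). *Camk2a*, the kinase of long-term potentiation, was highest at 0.078 (adjusted P = 0.918). None of the 3 genes of the ADAR family, *Adar*, *Adarb1* and *Adarb2*, was DE, with 1 higher and 2 lower. *Adarb1*, which edits the *Gria2* messenger RNA, had a log2 fold change of 0.035 (interval −0.057 to 0.13) and *Adarb2* one of −0.047 (interval −0.27 to 0.18), while editing itself cannot be read from these counts.

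*Mchr1*, the receptor of the peptide, was detected in every well, at 8.99 to 10.9 CPM with vehicle and 9.48 to 10.1 CPM with MCH (log2 fold change −0.031, adjusted P = 0.994). The genes whose profiles over the 8 wells were closest to *Gria1*, by the root mean square difference of centred log2 CPM, were *Dstyk* (0.013), *Pcbp2* (0.014) and *Asb1* (0.015), where the median over the 14952 genes compared was 0.12. For *Gria2* they were *Secisbp2l* (0.024), *Zzz3* (0.026) and *Dapk1* (0.026), with a median of 0.14. The profiles of *Gria1* and *Gria2* themselves varied little, with SDs of 0.022 and 0.075 on the log2 scale. Any other gene that varies little lies close to the *Gria1* profile, so closeness to it does not show shared regulation.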

How the data were processed

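Poly-A RNA of 4 vehicle-treated and 4 MCH-treated wells of hippocampal neurons was sequenced as stranded libraries, and treatment and replicate number were taken from the sample labels. The authors ran salmon within nf-core/rnaseq on GRCm38. They deposited a gene table of estimated counts, unscaled and 9.13% of them not whole, and transcript tables with estimated counts, effective lengths and TPM. The submitters' processing notes name Salmon, R 4.0.3 and DESeq2 1.13.0. Identifiers were matched to GENCODE vM21, which named 45143 of 45706 genes and may differ from the annotation the authors used. For all 10 genes the transcript sum lay within 1 read of the gene table.

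Counts were rounded and tested in R 4.3.3 with edgeR 4.0.16 (TMM, filterByExpr by treatment with a count minimum of 10 and total minimum of 15, robust quasi-likelihood F test of treatment alone), with Benjamini–Hochberg adjustment over all 14962 genes or 33527 transcripts and a threshold of 0.05. The SE is the log2 fold change over the square root of F, and intervals use the t distribution of that fit. Shares and ratios were tested by exact permutation over the 70 assignments of treatments to wells. The fits were tested on simulated counts; at the level of transcripts DESeq2 also called transcripts that had not been changed there, and the edgeR test had low power. At the depth of these libraries counting alone gives the 10 genes a coefficient of variation between 0.646% (*Gria1*) and 2.82% (*Cacng3*).

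Replicate numbers are shared by the treatments. After the treatment means were taken out, log2 CPM correlated at 0.445 to 0.545 in the 4 same-numbered pairs, at 0.475 to 0.521 for other numbers on the same side and at −0.548 to −0.438 across sides. Since every same-numbered pair was over 0.1 the numbers were taken to pair the wells, a pairing that comes from these values and not from the labels. Other numbers on the same side correlated within the range of the same-numbered pairs. Pairing by number therefore cannot be told apart from the side in these values. Alternatives were RLE factors, DESeq2 1.42.0, no filter, the replicate number or the side (sign of the first principal component) as a block, effective length as an offset, and leaving out each well.

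The 10 genes, the lists of related genes and the markers were chosen with earlier results of these data known. Genes named from a list are those DE with treatment alone or with the replicate number, and its lowest and highest log2 fold change; *Gria1* and *Gria2* transcripts are those with a mean of at least 10 reads, and *Dstyk*, *Pcbp2*, *Asb1*, *Secisbp2l*, *Zzz3* and *Dapk1* are the 3 closest profiles to each gene. Differences among proteins, receptor phosphorylation and RNA editing were not analysed here.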

Additional observations from a re-analysis of the deposited data

Results flagged for a closer look

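In 2 of 82 groups of 4 wells 1 well lay far from the other 3 by Dixon's ratio, where chance gives about 1 in 20. For the flip transcript Gria2-202, vehicle replicate 3 was at 353 CPM, while the other vehicle-treated wells were at 324 to 328 CPM. For the retained-intron transcript Gria2-208, vehicle replicate 1 was at 2.96 CPM and the others at 6.86 to 7.05 CPM.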

How the results depend on the processing

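Of the 10 genes, 0 were DE with RLE factors, DESeq2, no filter, the length offset, the replicate block or any of 8 wells left out (0 to 0), and 1, *Gria2*, was DE with the side of the wells as a block, at a log2 fold change of 0.11 (adjusted P = 0.0455). Over the other alternatives *Gria2* had an adjusted P of 0.067 to 0.90, and it stayed positive when any well was left out (0.086 to 0.13). The sides were read from these counts and no label names a batch. The replicate block changed no call among the members or the named transcripts.

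The count of DE genes was 35 with treatment alone, 154 with DESeq2, 596 with the replicate block, 668 with the side block, 7 with the length offset and 4 to 29 with a well left out. The count of DE transcripts was 0 with treatment alone, 219 of 69767 with DESeq2, 6 with the side block and 0 to 1 with a well left out.

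Several signs changed. For *Gria3*, −0.0011, the value was 0.00046 with RLE factors, 0.0048 without a filter, 0.0056 with the length offset and −0.036 to 0.032 with a well left out. With the length offset *Cnih3* was at 0.0096 and *Shisa9* at −0.0020. With a well left out, *Gria1* ranged from −0.0052 to 0.017, *Cacng2* from −0.049 to 0.0100, *Cnih2* from −0.090 to 0.018, *Cnih3* from −0.10 to 0.034 and *Shisa9* from −0.019 to 0.038, while *Gria4* (−0.071 to −0.017), *Cacng3* (−0.11 to −0.0080) and *Cacng8* (0.023 to 0.11) kept their sign but not their size. Among transcripts the ranges were −0.019 to 0.032 for Gria1-201, −0.043 to 0.0053 for Gria1-202, −0.099 to 0.35 for Gria1-203, −0.063 to 0.76 for Gria2-203 and −0.034 to 0.44 for Gria2-208.

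The level of *Gria1* was 328 TPM without transcripts under 500 bases. The difference in its share, 0.116 percentage points, became −0.30 without those transcripts and −0.86 with reads over a read-weighted effective length, a scale chosen after seeing the data because the planned, abundance-weighted length gives back the TPM sums, and it ranged from −0.86 to 0.99 with a well left out. On the read-weighted scale the *Gria4* shares of the treatments overlapped and the *Gria1* shares did not (53.3% with vehicle, 52.5% with MCH; exact permutation P = 0.0286, n = 4 wells each, 0.10 adjusted). With a well left out, the *Gria3* share difference ranged from −0.41 to 0.014, the log2 ratio of *Gria1* to *Gria2* from −0.091 to 0.016 that of TARPs from −0.097 to 0.0017 and that of cornichons from −0.16 to −0.045. The causes were not tested. For *Cacng2* with MCH the wells varied by 2.27%, beside 2.03% from counting alone, so depth limits that value too.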
